A study of Mus musculus with 6 samples.

Results

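Liver transcript levels were examined for 9 genes whose enzymes start or carry the breakdown of amino acids in hepatocytes: Tat, Hpd, Hgd and Fah (tyrosine), Tdo2 (tryptophan), Hal and Uroc1 (histidine), Sds (serine and threonine) and Agxt (glyoxylate and alanine). They were taken by gene symbol from the deposited table of 55573 genes, where each of the 9 symbols has 1 row. The study compared liver of generation 3 mice of 2 genotypes, to ask which pathways differ after loss of p21, and gave 3 libraries of polyA RNA to each. The control, named DKO here, is labelled mTR-/-Wrn-/- and so lacks the telomerase RNA gene and the Wrn helicase gene. The other group, p21TKO, carries the same deletions and is labelled p21-/- in addition. All 6 libraries are therefore labelled as lacking mTR and Wrn, with no wild-type liver among them. The mice had normal feed, all 6 titles carry a tag, 2M, that no label explains, no sex or age is stated in words, and whether each library is from its own animal is not stated, so a p-value here reflects the library spread alone, which may be technical.

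The liver is the main site where amino acids beyond the need for protein synthesis are degraded. Tyrosine is transaminated by tyrosine aminotransferase (Tat), and 4-hydroxyphenylpyruvate dioxygenase (Hpd), homogentisate dioxygenase (Hgd) and fumarylacetoacetase (Fah) then take its carbon skeleton to fumarate and acetoacetate. Tryptophan 2,3-dioxygenase (Tdo2) opens the kynurenine route, and Tat and Tdo2 are textbook examples of liver genes induced by glucocorticoids. Histidine ammonia-lyase (Hal) and urocanate hydratase (Uroc1) are the opening steps of histidine breakdown, serine dehydratase (Sds) turns serine into pyruvate, and alanine-glyoxylate aminotransferase (Agxt) detoxifies glyoxylate in peroxisomes.

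The values are FPKM, the reads of a gene per kilobase of its exons, scaled to the size of the library. The FPKM denominators ranged from 19363284 to 27061290 reads per library, and 84.8% to 99.8% of them lay in the listed genes, least in p21TKO replicate 3. Each of the 9 genes had between 2202 and 69564 reads in every library, so counting error was small beside the spread between libraries. Cdkn1a, the p21 gene, was at 0.761, 1.79 and 0.405 FPKM in DKO and at 1.41, 11.0 and 6.50 FPKM in the libraries labelled p21TKO. No source used here gives the deleted segment, so this does not check the label, and each direction below rests on the labels. Wrn stood at 0.197 to 0.294 FPKM in all 6 libraries, and Terc was listed at 0 in each, where polyA libraries say little about an RNA without a polyA tail. Y-linked transcripts were present in DKO replicates 2 and 3 and in p21TKO replicate 1 and listed at 0 in the others. p21TKO replicates 2 and 3 also stood apart from the other 4 libraries on the first principal component (44.4 and 56.6 against -34.6 to -7.7). The hepatocyte markers Alb, Apoa1, Ttr and 6 others summed to 48708 to 71590 FPKM, so the tissue label fits the contents of every library.

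None of the 9 genes passed the test between genotypes, and 1 of them, Tat, had groups that did not overlap. By limma on log2(FPKM + 1), at a Benjamini-Hochberg adjusted p under 0.05, 0 of the 9 were called, against 7 of 9538 genes tested (0.0734%). No gene of the 9 had an unadjusted p under 0.05, and limma voom on recovered reads also called 0. All 9 passed the expression filter, a mean of at least 1 FPKM. Groups without overlap were found for 1 of 9 genes (11.1%), while 15.4% of all tested genes had separated groups, so the share was not above the background. Of the 9 genes, 3 had higher and 6 had lower mean values in p21TKO, with a median log2 difference of -0.14 against 0.00 for all genes tested. In bulk liver, fewer cells of a type and less RNA per cell cannot be told apart.

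**Figure D1:**
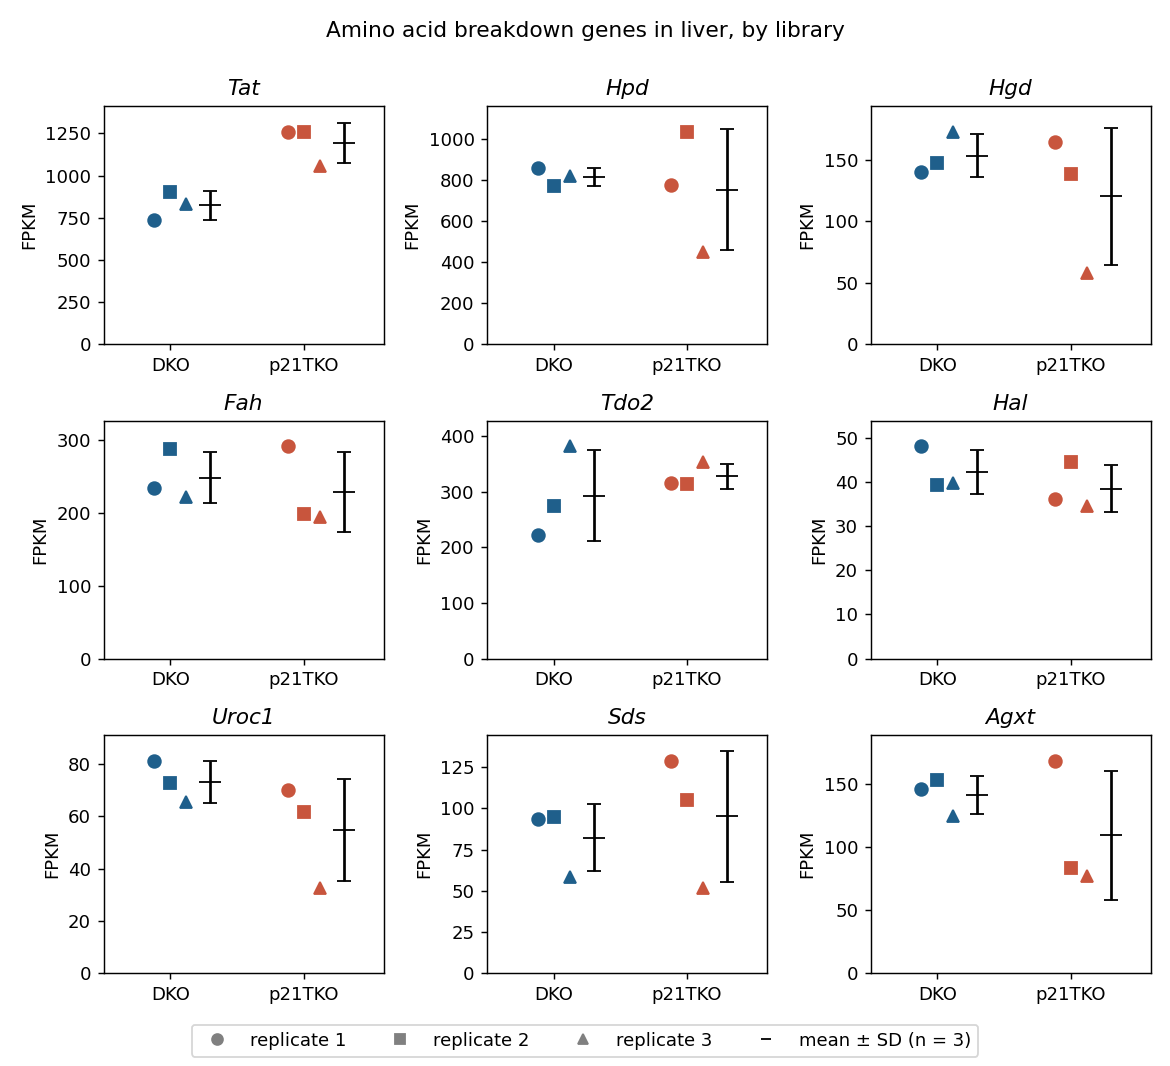
FPKM (vertical axes, starting at 0) of the 9 genes in each library, DKO in blue and p21TKO in red, with marker shape for the replicate number and a black bar for the mean ± SD of 3 libraries. Only Tat has groups that do not overlap, and p21TKO replicate 3 (red triangle) holds the lowest value for 7 of the 9 genes.

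FPKM corrects for length, here that of all annotated exons of a gene, so the order between genes depends in part on the annotation. Hal, with 5549 such bases, had 6403 reads in DKO replicate 1, and Agxt, with 1697, had 5946. In DKO the order was Tat (824 ± 85.1 FPKM, SD, n = 3), Hpd (815 ± 43.8), Tdo2 (293 ± 81.3), Fah (248 ± 34.9), Hgd (153 ± 17.3), Agxt (141 ± 15.1), Sds (82.3 ± 20.6), Uroc1 (73.2 ± 7.92) and Hal (42.3 ± 4.97). The neighbouring pairs Tat and Hpd, Tdo2 and Fah, Hgd and Agxt, and Sds and Uroc1 differed by less than their spread between libraries. The steps between those pairs, and from Uroc1 to Hal, were wider than the SDs. By mean level over the 6 libraries the 9 genes lay between the 89.0 and 99.4 percentile of all genes tested, with Tat the highest and Hal the lowest. The spread between DKO libraries was small for most of them, with a coefficient of variation from 5.38% (Hpd) to 14.1% (Fah), and larger for Sds (25.1%) and Tdo2 (27.8%). In p21TKO it was above 35% for Hpd (38.9%), Hgd (46.2%), Uroc1 (36.0%), Sds (41.7%) and Agxt (46.8%), and Tdo2 went the other way, at 6.70%.

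Tat was the gene with the highest level and the only one of the 9 that separated the genotypes. DKO replicates 1 to 3 had 735, 905 and 832 FPKM, and p21TKO replicates 1 to 3 had 1260.4, 1260.1 and 1056 FPKM. Each p21TKO library was above each DKO library. The means were 824 ± 85.1 and 1192 ± 118 FPKM (SD, n = 3 each), a ratio of 1.45. The log2 difference was 0.53 (SE 0.28, 95% confidence interval -0.15 to 1.21) and did not pass (limma adjusted p = 0.568). It stayed between 0.45 and 0.62 whichever library was left out. Within the libraries without Y-linked transcripts it was 0.65 and within those with them 0.54.

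Tat (ENSMUSG00000001670) lies at chromosome 8, 109990437 to 109999803, on the plus strand of GRCm38, with 12 exon blocks that share no base with exons of another gene. The 250 bases before the RefSeq start of Tat, whose groups separated, and of Hgd, furthest below its DKO mean in a single library, and Agxt, furthest below in p21TKO replicate 2, are given from the RefSeq promoter table (build GRCm38.p6). All 3 genes are on the plus strand, and capitals mark matches to the motifs named after them.
Tat, chr8:109990186-109990435: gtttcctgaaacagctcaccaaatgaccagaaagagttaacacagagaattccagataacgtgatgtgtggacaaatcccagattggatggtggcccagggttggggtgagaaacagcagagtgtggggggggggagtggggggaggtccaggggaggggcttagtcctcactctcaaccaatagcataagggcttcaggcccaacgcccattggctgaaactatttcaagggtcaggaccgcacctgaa
Hgd, chr16:37579903-37580152: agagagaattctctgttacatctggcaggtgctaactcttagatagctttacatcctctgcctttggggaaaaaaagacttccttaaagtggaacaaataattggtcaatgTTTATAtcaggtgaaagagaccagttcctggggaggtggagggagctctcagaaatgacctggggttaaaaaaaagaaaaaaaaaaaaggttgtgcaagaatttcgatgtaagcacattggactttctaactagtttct
Agxt, chr1:93134990-93135239: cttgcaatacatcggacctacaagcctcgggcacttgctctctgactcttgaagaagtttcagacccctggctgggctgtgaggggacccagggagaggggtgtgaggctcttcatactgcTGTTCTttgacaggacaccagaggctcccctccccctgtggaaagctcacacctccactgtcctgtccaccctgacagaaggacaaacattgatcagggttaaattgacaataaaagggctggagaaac
Both strands were searched for 3 motifs. AGAACA is a glucocorticoid receptor half-site. The letters TGACG are the core of a cyclic AMP response element. The sequence of the core promoter element bound by the TATA-binding protein was taken as TATAAA, and no match overlapped another. Of the 8 genes matched in the table, 1 window held AGAACA, that of Agxt (as TGTTCT, starting 129 bases before the start), and 0 held TGACG. A match to TATAAA was found in 3 windows, those of Hgd (139 bases before the start), Tdo2 (229 bases) and Hal (28 bases), in Hgd and Hal on the opposite strand. Over all 32851 windows in the table these motifs were present in 16.1%, 17.8% and 12.4%. The printed Tat window matched none of the 3, which says only that these letters are not in it.

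The later enzymes of tyrosine breakdown had lower means in p21TKO with overlapping groups, and they were not tested against Tat. Hpd, which makes homogentisate, stood at 857, 769.6 and 818 FPKM in DKO and at 775, 1036 and 450.3 FPKM in p21TKO. The p21TKO values lay on both sides of the DKO range, with replicate 2 the highest of the 6 libraries and replicate 3 the lowest. Its log2 difference was -0.19 (SE 0.38, limma adjusted p = 0.870), and without p21TKO replicate 3 it was 0.14.

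Hgd, the homogentisate dioxygenase gene, stood at 139.5, 147 and 173 FPKM in DKO and at 164, 138 and 57.7 FPKM in p21TKO. p21TKO replicate 1 was inside the DKO range, replicate 2 just under it and replicate 3 far below it. The log2 difference of -0.47 (SE 0.42, limma adjusted p = 0.701) was -0.02 without p21TKO replicate 3, so that library decided its size. Fah, the last enzyme of the chain, stood at 234, 287 and 222 FPKM in DKO and at 291, 199 and 195 FPKM in p21TKO. Replicate 1 of p21TKO was the highest of all and replicates 2 and 3 were the lowest (-0.13, SE 0.29, limma adjusted p = 0.882). With 1 library left out its difference lay between -0.32 (without p21TKO replicate 1) and -0.02 (without DKO replicate 2).

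The ratio of 2 genes within a library does not depend on how libraries are scaled, and the pairs of Tat with the later enzymes were chosen after the values were seen. Tat over Hpd was 0.858, 1.175 and 1.02 in DKO and 1.63, 1.22 and 2.35 in p21TKO. Tat over Fah was 3.15, 3.15 and 3.75 in DKO and 4.33, 6.35 and 5.43 in p21TKO. Tat over Hgd was 5.27, 6.14 and 4.82 in DKO and 7.68, 9.13 and 18.3 in p21TKO. In each of the 3 pairs the p21TKO libraries lay above the DKO libraries, narrowly so for Hpd. The mean log2 ratios differed by 0.73, 0.67 and 1.01 in that order. These ratios share the Tat values, so they are not separate observations. Hpd over Hgd, without Tat, overlapped between the groups (4.74 to 6.14 in DKO and 4.72 to 7.80 in p21TKO). Hal over Uroc1 overlapped too, as did Tdo2 over Tat (0.302 to 0.458 in DKO and 0.249 to 0.334 in p21TKO). Sds over Agxt, also without Tat, was separated (0.471 to 0.641 in DKO and 0.671 to 1.26 in p21TKO). How often ratios of other gene pairs separate was not examined.

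**Figure D2:**
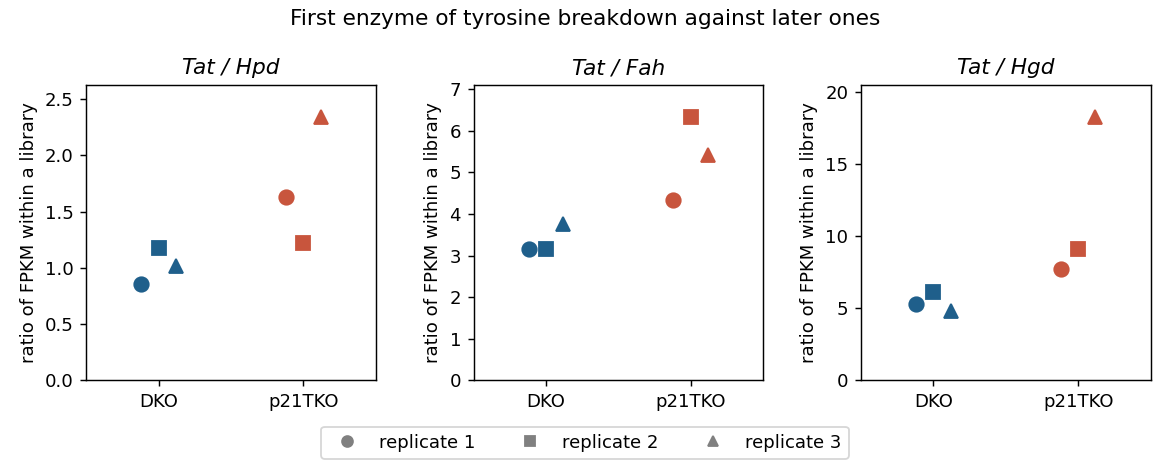
Ratio of Tat FPKM to Hpd, Fah and Hgd FPKM within each library (vertical axes, starting at 0), with marker shape for the replicate number. In all 3 panels the p21TKO points lie above the DKO points, from 1.22 against 1.175 for Hpd at the closest.

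Other genes of the phenylalanine and tyrosine list include Qdpr and Pcbd1, whose enzymes regenerate a pterin cofactor. Qdpr was at 142 ± 5.39 and 103 ± 43.7 FPKM and Pcbd1 at 319 ± 72.5 and 243 ± 126 FPKM (SD, n = 3), both with overlapping groups. Qdpr exons share 332 bases with an antisense gene. Tat was the only gene of the 8 in the phenylalanine and tyrosine list with a higher mean in p21TKO, and 0 of the 8 passed.

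Tdo2 showed no difference between genotypes beyond the spread of its DKO libraries. It stood at 222, 274.5 and 381 FPKM in DKO and at 315, 314 and 352 FPKM in p21TKO. The p21TKO libraries fell close together inside the DKO range. The log2 difference was 0.19 (SE 0.30, 95% confidence interval -0.52 to 0.91, limma adjusted p = 0.830), so a change of the size seen for Tat is inside the interval. It was 0.014 without DKO replicate 1, the lowest library, and 0.40 without DKO replicate 3, the highest.

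Of 11 other tested genes of tryptophan breakdown, 2 had higher and 9 lower means in p21TKO and 0 passed. Kyat3, a kynurenine aminotransferase, was at 18.5, 12.6 and 13.5 FPKM in DKO and at 22.4, 32.9 and 23.5 FPKM in p21TKO, with separated groups (0.78, SE 0.24, limma adjusted p = 0.523). Ido2, an indoleamine dioxygenase that acts at the same step as Tdo2, was at 25.3, 20.1 and 21.9 FPKM in DKO and at 16.2, 15.0 and 3.92 FPKM in p21TKO, also separated (-1.08, limma adjusted p = 0.531). Its log2 difference was -0.49 without p21TKO replicate 3, the lowest of these. Afmid, the kynurenine formamidase, overlapped, at 7.02 ± 2.68 and 3.65 ± 1.53 FPKM, and its exons share bases with other annotated genes, so its reads are uncertain. Kyat3 exons share 264 bases with an antisense gene, and no source used here says whether the counting used strand.

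Hal and Uroc1, which act one after the other on histidine, differed in how they varied. Hal stood at 48.0, 39.2 and 39.6 FPKM in DKO and at 36.2, 44.5 and 34.6 FPKM in p21TKO. These values overlap, and Hal had the narrowest range of the 9, its highest library at 1.39 times its lowest (log2 difference -0.14, SE 0.22, limma adjusted p = 0.834). Leaving out 1 library moved it between -0.25 (without p21TKO replicate 2) and -0.04 (without DKO replicate 1). Uroc1 stood at 81.2, 72.8 and 65.4 FPKM in DKO and at 70.0, 61.6 and 32.5 FPKM in p21TKO. The last 2 of these were below the DKO range, and the highest library was at 2.5 times the lowest. Its log2 difference of -0.48 (SE 0.33, limma adjusted p = 0.626) was -0.15 without p21TKO replicate 3. The 2 remaining histidine enzymes, Amdhd1 (63.0 ± 1.47 and 57.2 ± 9.12 FPKM) and Ftcd (100.3 ± 10.8 and 91.5 ± 13.4 FPKM), overlapped between the groups. Amdhd1 lies 4034 bases from Hal on chromosome 10.

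Sds varied widely within both genotypes. It stood at 93.4, 94.9 and 58.5 FPKM in DKO and at 129, 105 and 51.5 FPKM in p21TKO. p21TKO replicates 1 and 2 were above every DKO library and replicate 3 below every one. The log2 difference was 0.14 (SE 0.41, limma adjusted p = 0.916), and it was -0.09 without DKO replicate 3, -0.13 without p21TKO replicate 1 and 0.53 without p21TKO replicate 3. Sds exons share 360 bases with Plbd2 and 141 with Gm15690 on the opposite strand, so its values could hold reads of those genes.

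Sdsl, a serine dehydratase-like gene 3716 bases from Sds on chromosome 5, had the largest difference among the genes of the serine, threonine and glycine list. It stood at 4.34, 8.57 and 4.96 FPKM in DKO and at 11.7, 25.9 and 30.4 FPKM in p21TKO. All p21TKO libraries were above all DKO libraries. It differed by 1.71 on the log2 scale (SE 0.40), short of the threshold (limma adjusted p = 0.445). Leaving out p21TKO replicate 1 brought it past (2.11, limma adjusted p = 0.0181), while leaving out another library gave adjusted p-values up to 0.940. Without p21TKO replicate 1, 495 of all 9538 genes tested passed, against 7 with all 6 libraries. In the glycine cleavage system, Gldc was at 10.7, 7.88 and 10.1 FPKM in DKO and at 9.51, 37.1 and 22.2 FPKM in p21TKO (log2 difference 1.0, limma adjusted p = 0.531). It passed only without p21TKO replicate 1 (1.5, limma adjusted p = 0.0374, and up to 0.940 with another library left out). Amt, its aminomethyltransferase, went with lower values, at 13.3, 11.1 and 14.7 FPKM against 8.03, 7.83 and 5.31 FPKM, with separated groups (-0.81, SE 0.21, limma adjusted p = 0.515).

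Agxt was low in the 2 p21TKO libraries that stood apart and not in the third. It stood at 146, 153 and 124 FPKM in DKO and at 168, 83.1 and 76.7 FPKM in p21TKO. Replicate 1 of p21TKO was the highest of the 6 libraries and the other two were the lowest. The log2 difference was -0.45 (SE 0.36, limma adjusted p = 0.666), and -0.81 without p21TKO replicate 1, where it did not pass either (limma adjusted p = 0.112). Of 6 other tested genes of glyoxylate and hydroxyproline metabolism, 6 had lower means and 0 passed. Groups were separated for Aldh4a1, which oxidises the proline product (43.6 ± 4.60 and 24.8 ± 9.36 FPKM), Agxt2, a mitochondrial aminotransferase (35.4 ± 4.91 and 23.2 ± 6.23 FPKM), and Hoga1, which releases glyoxylate from hydroxyproline (71.7 ± 6.33 and 52.3 ± 11.3 FPKM). Exons of these 3 share bases with another annotated gene on the same strand. They were picked for the smallest p of the list, which favours separated groups. Groups were separated for 3 of the 6, beside 15.4% of all genes tested.

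**Figure D3:**
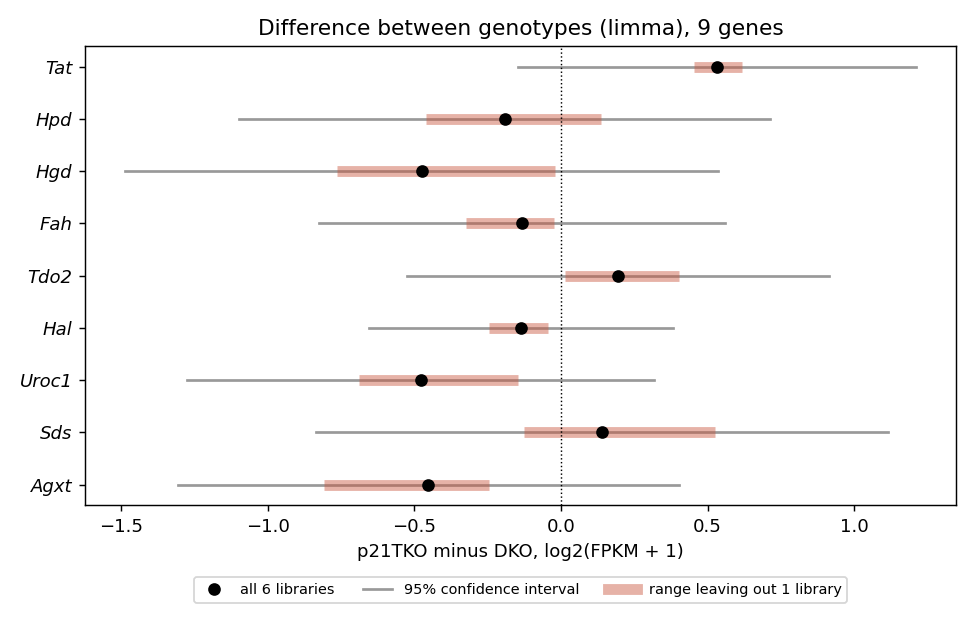
Difference p21TKO minus DKO on the log2(FPKM + 1) scale for the 9 genes, as black points with limma 95% confidence intervals (gray lines) and the range when 1 library at a time is left out (red bars). Every interval includes 0, and the red bars of Hpd and Sds cross it.

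Most of the 9 genes had their lowest value in p21TKO replicate 3. That library was the lowest of the 6 for 7 of the 9 genes, all but Tat and Tdo2, while it was the lowest for 27.3% of all genes tested. Against the DKO mean of each gene, the median of the 9 on the log2(FPKM + 1) scale was 0.14 in p21TKO replicate 1, 0.08 in replicate 2 and -0.63 in replicate 3. The DKO libraries lay between -0.09 and 0.05, and the median of all genes tested in p21TKO replicate 3 was -0.01. Hgd (-1.39) and Uroc1 (-1.14) were furthest down in it, followed by Agxt (-0.86), Hpd (-0.85) and Sds (-0.63). Tat (0.36) and Tdo2 (0.30) were above their DKO means in the same library. Agxt (-0.75) and Fah (-0.31) were nearly as far down in p21TKO replicate 2 as in replicate 3 (-0.86 and -0.34). With p21TKO replicate 1 alone against the DKO libraries, a comparison added after the values were seen, Hgd (0.10), Fah (0.24) and Agxt (0.26) had the opposite sign and Tat was at 0.62. With 1 library in an arm the spread in that fit comes from the DKO libraries alone, so these are values without a check between p21TKO replicates.

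**Figure D4:**
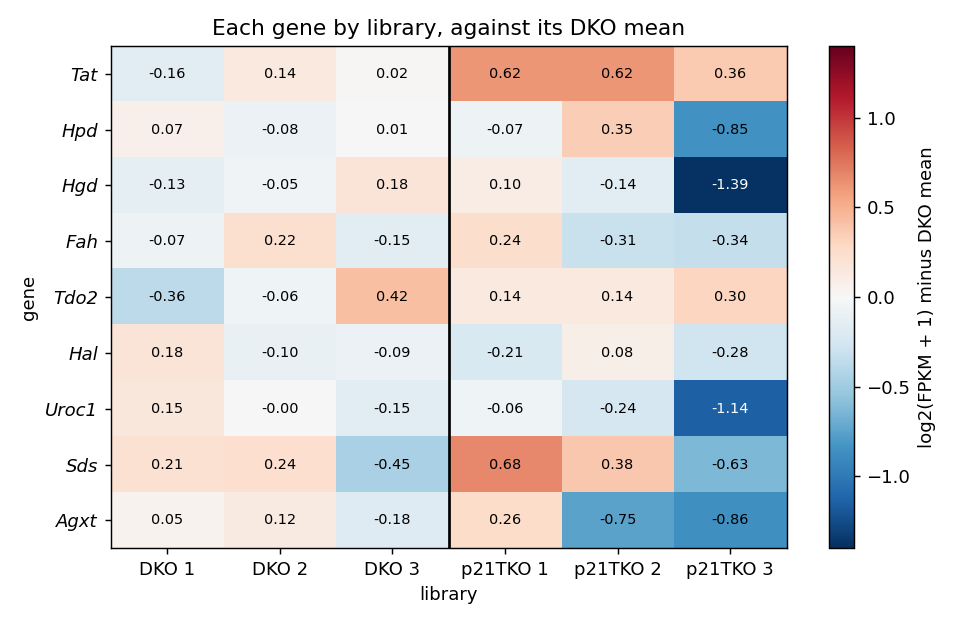
Heat map of log2(FPKM + 1) minus the DKO mean of the same gene, for 9 genes (rows) and 6 libraries (columns), with the value in each cell. The p21TKO 3 column holds the lowest values, down to -1.39 for Hgd, while Tat is above 0 in all 3 p21TKO columns.

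Other features of these libraries also differed between the groups, and their part in the values of the 9 genes was not tested. Acute phase genes, 13 of 14 tested and all 13 with higher means, summed to 9123 to 11312 FPKM in DKO and to 6027, 61295 and 29911 FPKM in p21TKO replicates 1 to 3. Neutrophil markers, 7 of 10 tested and all 7 with higher means, summed to 10.5 to 29.0 FPKM in DKO and to 24.6, 556 and 221 FPKM. Kupffer cell and macrophage markers (11 of 11 tested, all higher) summed to 55.0 to 126 FPKM in DKO and to 41.7, 376.5 and 207 FPKM in p21TKO. For liver endothelial markers (9 of 9 tested, all higher) the sums were 17.1 to 29.0 FPKM and 17.4, 85.8 and 44.8 FPKM. In these 4 lists p21TKO replicate 2 was the highest library and replicate 3 the next. No defining marker of these lists was at 0 in all 6 libraries. Of the 9 genes, 4 were below every DKO library and 3 above every one in p21TKO replicate 2. In p21TKO replicate 3, 7 were below and 1 above. Periportal markers without Sds and Hal, 5 of 6 with lower means, summed to 2552 to 3289 FPKM in DKO and to 3657, 2994 and 1543 FPKM in p21TKO replicates 1 to 3. Pericentral markers (7 of 8 tested, all lower) summed to 3831 to 5180 FPKM and to 3181, 2875 and 1493 FPKM. The summed hepatocyte markers overlapped, at 48708 to 67936 and 55841 to 71590 FPKM. Gene by gene, 5 of the 9 had higher and 4 lower means. Groups were separated for 44.4% of them (3 higher and 1 lower), beside 15.4% of all genes tested. Reads of mitochondrially encoded genes made up 6.23% to 12.96% of the denominators in DKO and 3.65% to 8.2% in p21TKO. The lymphocyte markers summed to 2.20 to 2.96 FPKM in DKO and to 0.570 to 1.26 FPKM in p21TKO, with none of 10 high enough to test. Erythroid markers, 4 of 6 tested and all lower, summed to 109 to 576 FPKM in DKO and to 17.9 to 726 FPKM in p21TKO. Those of stellate cells and fibroblasts, 5 higher and 2 lower of 7 tested, summed to 39.7 to 63.4 and 77.2 to 88.1 FPKM. The cholangiocyte markers, 1 of 7 tested, summed to 7.06 to 18.5 and 7.10 to 28.3 FPKM.

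Split by Y-linked transcripts, the difference kept its sign in both strata for Tat (0.65 without and 0.54 with them), Hpd (-0.33 and -0.03) and Hal (-0.28 and -0.12). It had opposite signs for the other 6 genes, which were Hgd (-0.64 and 0.04), Fah (-0.25 and 0.20), Tdo2 (0.58 and -0.04), Uroc1 (-0.84 and 0.02), Sds (-0.34 and 0.78) and Agxt (-0.86 and 0.29). Each stratum holds 3 libraries, with a single DKO library among those without Y-linked transcripts and a single p21TKO library among those with them, so neither was tested. With a sex term in the fit 0 of the 9 passed.

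The wider set of amino acid breakdown genes, without the 9, had lower means in p21TKO more often than not. Over the lists for phenylalanine and tyrosine, tryptophan, histidine, serine and glycine, glyoxylate, branched-chain amino acids and lysine, 55 of 58 genes were tested. Of these 48 had lower and 7 higher means, 0 passed (limma), and the median log2 difference was -0.42, whereas 49.8% of all genes tested had lower means. At an unadjusted p under 0.05 (limma) there were 9 of the 55, beside 895 of all 9538 genes tested. The groups were separated for 15 of the 55 (27.3%), 13 with lower and 2 with higher values in p21TKO, beside 15.4% of all genes tested. Against their DKO means the medians of the 55 were -0.13, -0.40 and -0.83 in p21TKO replicates 1 to 3 and -0.11 to 0.08 in the DKO libraries. The order of the p21TKO libraries is that of the 9 genes, with replicate 3 the lowest. Genes named from each list were picked for the smallest p, so their separated groups partly follow from that choice.

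**Figure D5:**
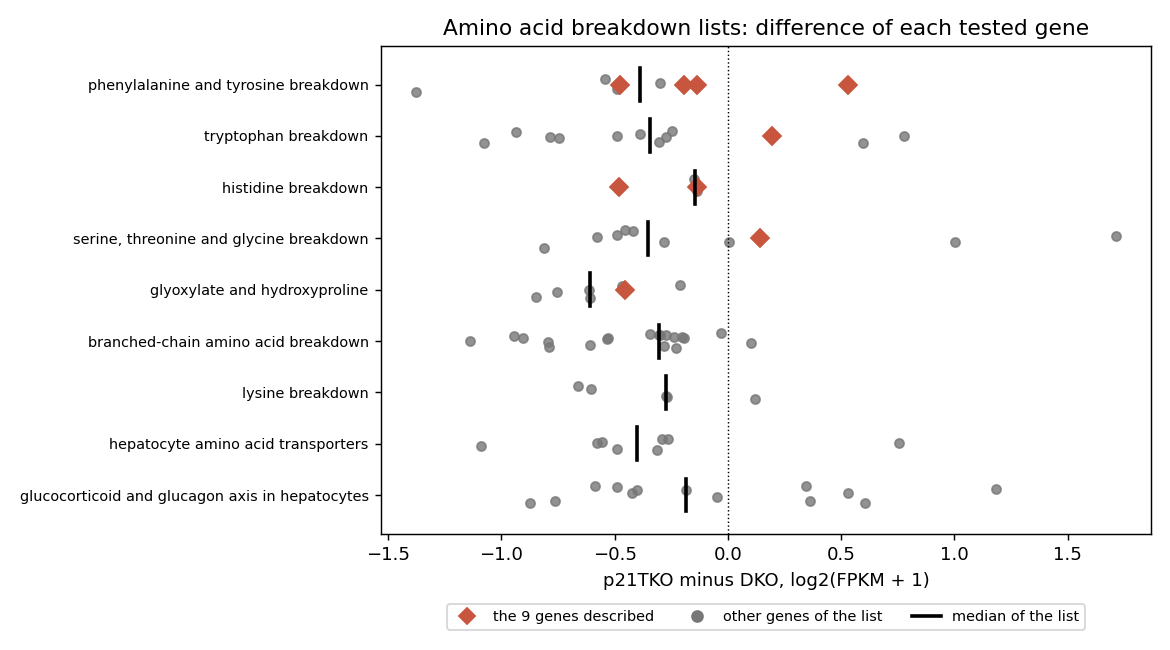
Difference p21TKO minus DKO on the log2(FPKM + 1) scale (horizontal axis) of each tested gene in 9 lists (rows), with red diamonds for the 9 genes described, gray points for other genes and a black bar for the median of the list. All 9 medians are below 0, from -0.61 for glyoxylate and hydroxyproline to -0.14 for histidine, and Tat lies to the right of 0.

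Among branched-chain amino acid genes 18 of 19 had lower means and 0 passed, with a median of -0.30. Bckdhb, a subunit of the branched-chain ketoacid dehydrogenase, stood at 66.7, 50.1 and 55.1 FPKM in DKO and at 31.9, 32.9 and 32.6 FPKM in p21TKO. The 3 p21TKO values were close together and below every DKO value (-0.79, SE 0.21, limma adjusted p = 0.515). Ppm1k, the phosphatase that activates that dehydrogenase, was at 11.9 ± 1.44 and 5.64 ± 3.74 FPKM, and Aldh6a1, in valine breakdown, at 67.4 ± 4.96 and 40.6 ± 16.0 FPKM, both with separated groups. In lysine breakdown 4 of 5 means were lower and 0 passed. Dhtkd1, a dehydrogenase subunit of that route, was at 8.34 ± 1.47 and 4.86 ± 0.535 FPKM with separated groups (-0.66, SE 0.18, limma adjusted p = 0.515), while Gcdh, glutaryl-CoA dehydrogenase, overlapped at 156 ± 31.2 and 130 ± 33.3 FPKM. Aldh7a1, which oxidises a semialdehyde of that route, also overlapped, at 68.8 ± 12.5 and 47.7 ± 20.7 FPKM. Aldh6a1 exons share 1078 bases with Bbof1 on the opposite strand, and those of Dhtkd1 and Aldh7a1 also share bases with antisense genes.

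Of 8 amino acid transporter genes 7 had lower means and 0 passed, with a median of -0.40. Slc38a3, a glutamine and histidine transporter gene, stood at 487, 457 and 387 FPKM in DKO and at 367, 154 and 157 FPKM in p21TKO, with all p21TKO libraries below DKO (-1.09, SE 0.41, limma adjusted p = 0.523). Without p21TKO replicate 1 it was past the threshold (-1.50, limma adjusted p = 0.0334), with adjusted p-values up to 0.940 when another library was left out. The fit without that replicate called 495 of all 9538 genes tested. Slc38a4, a neutral amino acid transporter gene, was also separated, at 224 ± 52.8 and 152 ± 31.6 FPKM, and Slc7a2, a cationic amino acid transporter gene, overlapped at 76.1 ± 13.2 and 54.8 ± 14.9 FPKM. Slc7a2 exons share 635 bases with an antisense gene.

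Genes of the glucocorticoid and glucagon axis, through which Tat and Tdo2 are known to be induced, had 5 higher and 8 lower means of 13 tested, with 0 passing and a median of -0.19. Nr3c1, the glucocorticoid receptor, stood at 10.2, 7.89 and 9.98 FPKM in DKO and at 7.45, 7.14 and 4.74 FPKM in p21TKO, with separated groups (-0.49, SE 0.21, limma adjusted p = 0.523). Sgk1, a glucocorticoid-induced kinase gene, was at 3.96, 4.73 and 2.36 FPKM and at 4.95, 6.24 and 5.71 FPKM, again separated and in the other direction (0.53, SE 0.23, limma adjusted p = 0.523). Fkbp5, another glucocorticoid-induced gene, overlapped, at 12.3, 6.61 and 3.70 FPKM in DKO and 8.49, 23.3 and 23.2 FPKM in p21TKO. Fkbp5 lies on chromosome 17, which also carries Cdkn1a, and whether this bears on its values was not tested.

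For the 3 genes with the largest SD of log2(FPKM + 1) over the 6 libraries, Hgd, Sds and Agxt, the tested genes with the nearest profile were found by the root mean square distance between centred log2(FPKM + 1) values over the 6 libraries. Agmat, the agmatinase gene, was nearest to Agxt, at a distance of 0.018. It stood at 117, 126 and 97.9 FPKM in DKO and at 136, 65.9 and 61.6 FPKM in p21TKO, the same order of libraries as Agxt. The next were Impa1 (0.057) and Errfi1 (0.080). The genes nearest to Hgd were Ypel5 (0.087), Pex6 (0.088) and C1s1 (0.095), each with its lowest value in p21TKO replicate 3. Nothing lay as near to Sds, where Anxa5 (0.185), Slc29a1 (0.186) and Igfbp7 (0.204) came first. Among the 9 genes the closest pair was Hgd and Uroc1 (0.219), with 98 other genes nearer to Hgd than Uroc1 was. These distances describe 6 shared libraries and carry no test.

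The nearest tested gene on each side of the 9 genes was also listed, 18 in all, of which 0 passed (limma, 2 at an unadjusted p under 0.05) and 2 had separated groups. Over all 9538 genes tested, 895 had such a p-value and 15.4% had separated groups, so the neighbours were not separated more often than that. The separated neighbours were Sdsl and Asic5, an ion channel gene 6088 bases from Tdo2 on chromosome 3. Asic5 stood at 6.10, 9.67 and 12.3 FPKM in DKO and at 2.31, 0.718 and 0.593 FPKM in p21TKO (-2.27, SE 0.35, limma adjusted p = 0.171). Tdo2 beside it overlapped between the groups. None of the 9 genes lies on chromosome 17, which carries Cdkn1a. Hpd and Sds are on chromosome 5 (123171807 to 123182727 and 120476526 to 120483932), and the others are Agxt (chromosome 1, 93135240 to 93145421), Tdo2 (chromosome 3, 81957090 to 81976202), Uroc1 (chromosome 6, 90333284 to 90364551), Fah (chromosome 7, 84585159 to 84606722), Hal (chromosome 10, 93488768 to 93519304) and Hgd (chromosome 16, 37580153 to 37632020).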

How the data were processed

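PolyA RNA of 6 liver libraries was measured, 3 per genotype. The values the authors deposited are FPKM. Tools named in the submitters' processing notes are DESeq2 1.20.0, featureCounts 1.5.0-p3, HISAT2 2.0.5, fastp and CASAVA 1.8, with no role given. The builds in those notes are human (GRCh38, hg38) and the identifiers are mouse, which leaves the authors' build unsettled. Coordinates are of GENCODE M21 (GRCm38), matched by identifier for 55480 of 55573 genes. FPKM times the union exon length and a library denominator found from low genes came within 0.02 of a whole read for 99.3% of the values of every library. Genes with a mean of at least 1 FPKM entered a two-sided limma 3.58.1 fit with trend in R 4.3.3, made on log2(FPKM + 1) with group as the only term and Benjamini-Hochberg adjustment over 9538 genes. Fold changes on that scale understate those of low genes. The script was tested on simulated data. The members, lists and rules were chosen with earlier results of these data known. Genes named are the 9 members, the targeted genes, up to 3 others per list with the smallest p, markers and nearest profiles. One list gene that this rule names is not reported here. Chromosomal neighbours, and Tsc22d3, Klf15 and Per1, were chosen after the values were seen. Alternatives were the pseudocount, filter, scaling, variance model, replicate block, sex term, voom on recovered reads and leaving out each library. Sequences are from the RefSeq promoter table. Python 3.11.15 and matplotlib 3.10.9 drew the figures.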

Additional observations from a re-analysis of the deposited data

How the results depend on the processing

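The count of the 9 genes called was 0 under all 19 alternatives, including each library left out. The one with p21TKO replicate 1 alone says little of stability, since its spread comes from DKO only. Their median log2 difference of -0.14 ranged from -0.25 (without p21TKO replicate 1) to -0.02 (without p21TKO replicate 3) when a library was left out. With p21TKO replicate 1 alone against DKO, added after seeing the data, it was 0.14. The count over all genes, 7, was 4 with a pseudocount of 5 and with a mean of at least 5 FPKM, 1 with no filter on low values and 2 with limma voom. It was 11 with FPKM rescaled to the reads of the listed genes, added after seeing the data, and 2 with p21TKO replicate 1 alone. It ranged from 1 (without DKO replicate 3) to 495 (without p21TKO replicate 1). The cause was not tested. With a library left out Hpd ranged from -0.46 (without p21TKO replicate 2) to 0.14 (without p21TKO replicate 3), and Sds from -0.13 (without p21TKO replicate 1) to 0.53 (without p21TKO replicate 3), with -0.09 without DKO replicate 3. With p21TKO replicate 1 alone the sign turned for Hgd (0.10), Fah (0.24), Agxt (0.26), Qdpr (0.084), Pcbd1 (0.30) and Ftcd (0.10). In the same comparison fewer genes were lower in every list except the transporters, which stayed at 7 of 8. The counts were 3 of 8 for phenylalanine and tyrosine, 5 of 12 for tryptophan and 3 of 7 for glyoxylate. They were 3 of 13 for the glucocorticoid and glucagon axis and 15 of 19 for branched-chain amino acids. For serine, threonine and glycine it was 4 of 10, for histidine 3 of 4 and for lysine 3 of 5. The glucocorticoid and glucagon list had 5 lower without p21TKO replicate 3. Of 35 named list genes and members, 3 passed without p21TKO replicate 1, Sdsl, Gldc and Slc38a3. The same fit called 495 of all 9538 genes tested, and the list genes had been picked for a small p. Replicate numbers are shared by the labels, but deviations of same-numbered libraries did not go together (correlations -0.44, -0.49 and -0.07). With 3 libraries per group this cannot settle whether the numbers pair them. A fit with the replicate number as a block called 0 of all genes. In 3 libraries 84.8% to 90.2% of the denominator lay in the listed genes. Groups of 3 libraries limit the precision of each difference more than the 2202 or more reads per gene do.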
